A study of Mus musculus with 16 samples.

Results

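The naive pluripotency transcription factors of mouse embryonic stem cells (ESCs) were followed through a knockdown of the mRNA cap methyltransferase activator RAM: Nanog, Klf2, Klf4, Klf5, Esrrb, Tfcp2l1, Zfp42, Tbx3, Nr5a2 and Prdm14. They were taken as a list of 10 named transcription factors from 46983 genes in the count table, matched by gene identifier. All 10 passed the filter on low counts, which left 12805 genes for testing.

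The cells were 46C mouse ESCs, a line of strain 129Ola with GFP at the Sox1 locus, grown on gelatin in medium with knockout serum replacement and leukaemia inhibitory factor (LIF). They were transfected with RAM siRNA or with a non-targeting control siRNA and lysed 48 hr later, after 10 min in cycloheximide, which holds ribosomes on transcripts. From each lysate, 10% was kept as input and sucrose fractions 17 to 22 were pooled as polysomes, so the 4 groups were input and polysomes of control cells and input and polysomes of RAM siRNA cells, with 4 libraries in each. All 4 groups therefore came from transfected cells of 1 line, and the labels describe the input as cytoplasmic RNA.

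The naive state is the state of the early epiblast before implantation, and ESCs kept in LIF largely hold it. A set of interlinked transcription factors maintains it by activating one another and the core factors Oct4 and Sox2, and most of the set is switched off when cells leave the state. LIF acts through STAT3 on Klf4 and Tfcp2l1, Wnt signalling relieves repression of Esrrb and Tfcp2l1, and Prdm14 restrains fibroblast growth factor signalling and DNA methyltransferase expression. RAM, encoded by Ramac, activates RNMT, the enzyme that methylates the guanosine cap of mRNA.

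The siRNA target was measured first. Input levels of Ramac were 10.8 ± 0.608 CPM with control siRNA and 3.02 ± 0.233 CPM with RAM siRNA (SD, n = 4 each), a log2 difference of -1.84 with a standard error of 0.11 by edgeR's quasi-likelihood test (adjusted p = 7.24e-06). CPM are read counts relative to library size after TMM scaling over all 16 libraries, whose total counts ran from 16647523 to 20147833. The labelled cell type was checked with 8 ESC markers, all of which passed the filter, and their summed level was 3873.9 to 4238.3 CPM in control input and 3306.4 to 3917.8 CPM in RAM siRNA input.

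Sequence upstream of the members was read from RefSeq (GRCm38.p6), which gave windows for 7 of the 10: Nanog, Klf2, Klf4, Esrrb, Tfcp2l1, Zfp42 and Nr5a2. There were 10 windows in all, since Nanog, Esrrb and Nr5a2 had 2 each, and those of Nanog overlap. The 250 bases before the annotated start were searched on both strands for the octamer core TTTGCAT, bound by Oct4, the 6 bases ACAATG, which Sox2 binds, the shared half-site AAGGTCA of Esrrb and Nr5a2, and the KLF motif GGGNGTG. The octamer core was in 3 of the 10 windows, both of Nanog and that of Zfp42. The first Nanog window and the Zfp42 window are shown because they hold the octamer core, and Oct4 and Sox2 sit above this network. Capitals mark the octamer core and the Sox motif.
Nanog, chr6:122707239-122707488, plus strand: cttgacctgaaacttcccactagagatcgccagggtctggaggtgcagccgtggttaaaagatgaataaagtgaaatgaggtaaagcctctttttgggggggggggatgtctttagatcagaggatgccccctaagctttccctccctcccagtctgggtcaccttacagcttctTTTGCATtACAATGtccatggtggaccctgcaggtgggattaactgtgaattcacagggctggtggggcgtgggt
Zfp42, chr8:43307010-43307259, minus strand: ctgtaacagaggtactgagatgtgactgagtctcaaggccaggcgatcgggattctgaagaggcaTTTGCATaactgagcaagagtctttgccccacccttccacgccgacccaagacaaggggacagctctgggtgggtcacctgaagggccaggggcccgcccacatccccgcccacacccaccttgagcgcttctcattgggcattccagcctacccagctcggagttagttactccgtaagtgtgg

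In the Nanog window the octamer core began 75 bases before the start, and the Sox motif followed it after 1 base. Of 32851 windows of this length, 4.12% held the octamer core, 10.7% held ACAATG, and 2 held both in this spacing, which are the overlapping windows of Nanog. In the Zfp42 window the octamer core began 185 bases before the start with no ACAATG. The half-site AAGGTCA was in 0 of the members' 10 windows (4.08% of all windows). GGGNGTG was in 6 of the 10, which belong to 5 members (Nanog, Esrrb, Tfcp2l1, Zfp42 and Nr5a2), against 26.1% of all windows. These are letter matches in a short window, and binding was not measured.

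Levels of the members were first ordered in control cells, per kb of exon so that genes of different length could be compared. The length used is that of all annotated exons of a gene, which can exceed a single transcript. For Klf5 it is 5201 bases against 3352 in the transcript with the longest coding sequence, and for Esrrb 6047 against 4196. The order of the levels therefore depends on this choice of length. Zfp42, whose product Rex1 is a common marker of naive cells, was at the top of the order with 199.5 ± 17.9 CPM per kb in control input, followed by the homeobox gene Nanog with 116.1 ± 8.28 and the orphan nuclear receptor gene Esrrb with 71.2 ± 2.58 CPM per kb (SD, n = 4 each). Klf4 (47.9 ± 4.04), Tfcp2l1 (33 ± 3.37), Klf5 (25 ± 1.25) and Tbx3 (19.2 ± 1.63) came next. Nr5a2 (13.7 ± 1.26) and Klf2 (11.3 ± 2.53) were the 1 pair of neighbours whose libraries overlapped, and Prdm14 was lowest at 5.08 ± 0.33 CPM per kb. In input the order was the same after RAM siRNA, but there Tfcp2l1 overlapped Klf5, Tbx3 overlapped Nr5a2 and Nr5a2 overlapped Klf2. In control polysomes the order differed: Klf4 was above Esrrb, Klf2 was above Tbx3 and Nr5a2, and Tfcp2l1 stood ninth with 8.91 ± 0.598 CPM per kb.

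To ask whether RAM repression changed the amount of these transcripts, RAM siRNA input was compared with control input. In the fit without a block for the replicate number, 4 of the 10 fell: Nanog, Esrrb, Tbx3 and Prdm14, by between 1.19-fold and 1.43-fold. None rose, and 9 of the 10 had a negative log2 fold change. Among all tested genes 5.94% were called lower and 6.95% higher in this fit (adjusted p under 0.05, edgeR quasi-likelihood test). Its median log2 fold change was -0.21 over the 10 members and 0.00 over all tested genes. With the replicate number as a block, 8 of the 10 fell, against 19.0% of all tested genes called lower, as given below.

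Prdm14, the PR domain zinc finger gene, had the largest fall of the 10. It was at 12.5, 13.6, 13.9 and 12.2 CPM in control input, replicates 1 to 4, and at 8.57, 11, 9.28 and 7.75 CPM in RAM siRNA input. The groups did not overlap, and the fitted log2 difference was -0.51, with a standard error of 0.12 (adjusted p = 0.0133). These levels rest on 137 to 271 reads a library, the fewest among the members.

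Nanog was at 272.3, 252.8, 237.6 and 278.2 CPM in control input and at 214.5, 211, 203.1 and 222.5 CPM after RAM siRNA. The highest RAM siRNA library was thus below the lowest control library, and the fitted log2 difference was -0.29, with a standard error of 0.07 (adjusted p = 0.0205). Annotated Nanog pseudogenes can share reads with Nanog, and whether they affected its count was not tested.

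Esrrb, a target of Nanog and of Wnt signalling, was at 416.3, 417.8, 439.8 and 447.3 CPM in control input and at 355.7, 358.6, 371.8 and 364.6 CPM after RAM siRNA. Its spread was small in both groups, with SDs of 15.6 and 7.11 CPM, and the groups did not overlap (log2 fold change -0.25, standard error 0.07, adjusted p = 0.029). Tbx3, a T-box gene, was at 122.1, 132.3, 138.8 and 114.5 CPM in control input and at 102.9, 108, 106.6 and 85.3 CPM after RAM siRNA. Its groups did not overlap either (log2 fold change -0.34, standard error 0.09, adjusted p = 0.0329). The antisense gene Tbx3os1 overlaps Tbx3 and the strand setting of the counting is not given in the sources used here, so reads of the 2 cannot be told apart. For each of these 4 genes the exact permutation test of log2 CPM gave p = 0.0286 (two-sided), the smallest that 4 against 4 libraries allow. Groups without overlap always give this value, so it adds no support beyond the lack of overlap. The permutation test also does not use the replicate numbers. How many of all tested genes had no overlap in input was not counted.

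The other 6 members did not pass this test. Tfcp2l1, a CP2 family gene downstream of LIF, was at 307.9, 311.3, 352 and 274.3 CPM in control input and at 258.1, 310.2, 276.9 and 211.7 CPM after RAM siRNA. Its groups overlapped, while each RAM siRNA library was below the control library of the same number (log2 fold change -0.24, standard error 0.12, adjusted p = 0.2). Zfp42 was at 359.5, 354.6, 361.4 and 425.5 CPM in control input and at 321.5, 336.9, 337.7 and 396.8 CPM after RAM siRNA (log2 fold change -0.11, standard error 0.09, adjusted p = 0.456). Replicate 4 was the highest library in both groups.

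Nr5a2, an orphan nuclear receptor gene, was at 82.4, 89.6, 71.5 and 80.4 CPM in control input and at 72, 85.1, 55.9 and 71.7 CPM after RAM siRNA (log2 fold change -0.19, standard error 0.11, adjusted p = 0.301). Here too replicates 2 and 3 were the extremes of both groups, and the RAM siRNA library was lower in 4 of 4 pairs.

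None of the 3 Kruppel-like factor genes passed without the block. Klf4 had a log2 fold change of -0.14 (95% confidence interval -0.32 to 0.04, adjusted p = 0.288), with means of 146 ± 12.3 and 132.7 ± 9.42 CPM. Klf5 had one of -0.06 (-0.22 to 0.10, adjusted p = 0.657), with means of 130 ± 6.5 and 125 ± 9.08 CPM. Klf2 was at 20.9 ± 4.67 and 21.5 ± 3.49 CPM (SD, n = 4 each), and its log2 fold change of 0.04 carried the widest of the 3 intervals, -0.32 to 0.39 (adjusted p = 0.905). Replicate 1 was the lowest library of both Klf2 groups, with 14.1 CPM in control input and 16.7 CPM after RAM siRNA.

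**Figure D1:**
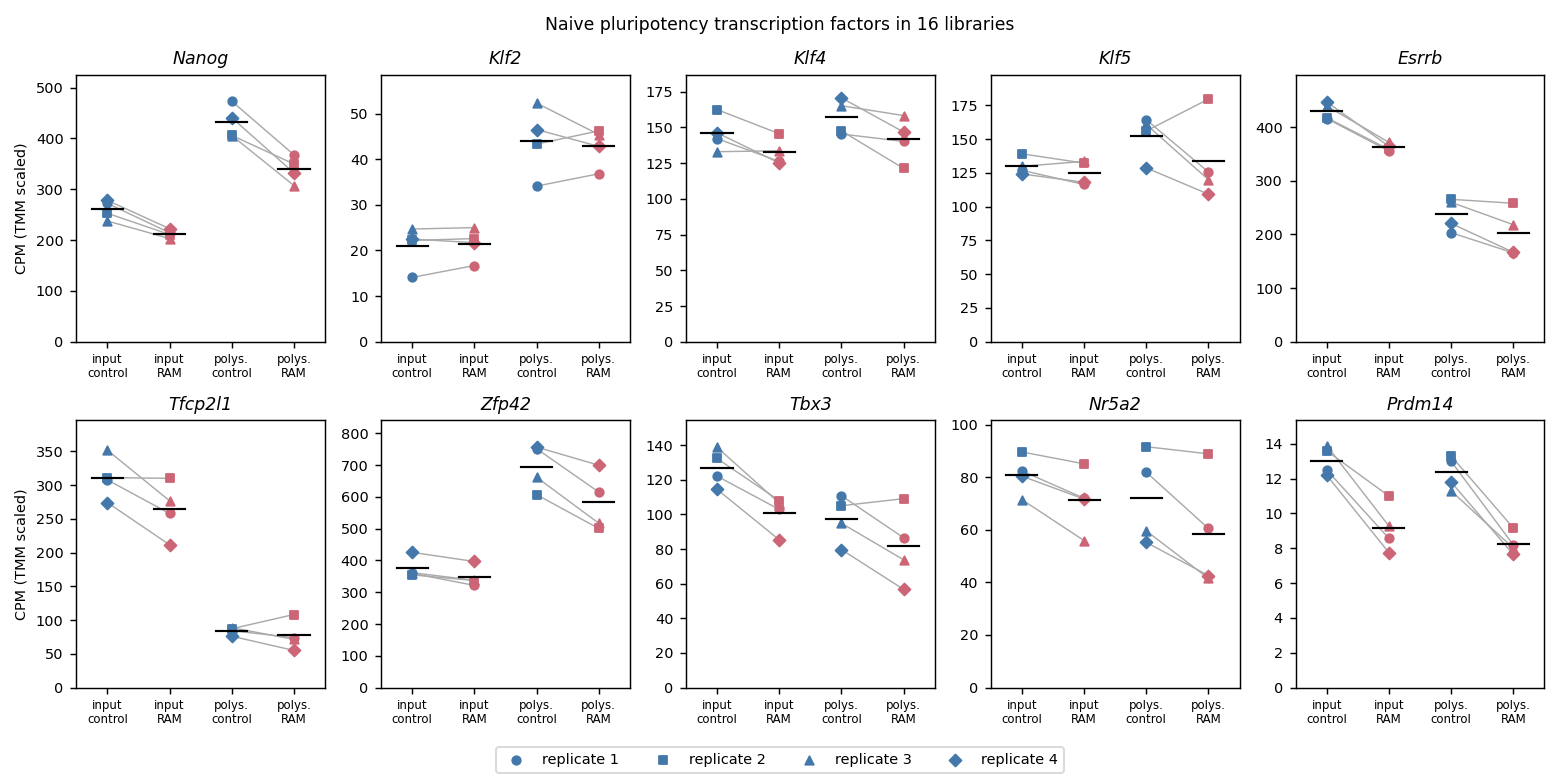
Level of each member in the 16 libraries, in CPM on a linear axis from 0; points are libraries shaped by replicate number, grey lines join same-numbered libraries, and black bars are group means (n = 4). Nanog, Esrrb, Tbx3 and Prdm14 show no overlap between the 2 input groups, and Tfcp2l1 drops from a mean of 311.4 CPM in control input to 84.1 CPM in control polysomes.

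Same-numbered libraries varied together and were taken to come from the same one of 4 transfections, which the labels do not state. The comparison was therefore repeated with the replicate number as a block. In that fit 8 of the 10 members fell in input: the 4 above together with Tfcp2l1 (-0.25, adjusted p = 7.86e-04), Nr5a2 (-0.20, adjusted p = 0.00303), Klf4 (-0.14, adjusted p = 0.02) and Zfp42 (-0.11, adjusted p = 0.0386). With the block 19.0% of all tested genes were called lower and 20.3% higher. Klf5 (-0.06, interval -0.15 to 0.03, adjusted p = 0.292) and Klf2 (0.05, interval -0.09 to 0.19, adjusted p = 0.618) did not pass. In all, 7 members (Nanog, Esrrb, Tfcp2l1, Zfp42, Tbx3, Nr5a2 and Prdm14) were lower in 4 of 4 pairs, Klf4 and Klf5 in 3, and Klf2 in 1. How many of all tested genes were lower in 4 of 4 pairs was not counted.

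The pair differences show how even each fall was. Esrrb differed by between -0.29 and -0.22 on the log2 scale in the 4 pairs, and Nanog by between -0.34 and -0.23. Prdm14 ranged from -0.62 to -0.30 and Tfcp2l1 from -0.37 to -0.01, and in both the smallest difference was in pair 2. With 1 pair left out and the block kept, between 6 and 7 members fell. In these fits 13.3% to 18.7% of all tested genes were called lower and 14.6% to 20.1% higher. Klf4 (adjusted p = 0.0952 without pair 1, 0.0796 without pair 2 and 0.0637 without pair 4) and Zfp42 (0.151 without pair 1, 0.0946 without pair 2 and 0.107 without pair 3) lost their calls most often. Without the block, leaving out single libraries left between 1 and 4 members called, and the share of all tested genes was not read there. Prdm14 kept its call without each of the 8 libraries in turn, while the highest adjusted p was 0.0792 for Nanog (without control replicate 1), 0.0881 for Esrrb (without RAM siRNA replicate 1) and 0.0934 for Tbx3 (without control replicate 2). A single fit over all 16 libraries called 0 of the 10 lower in input by edgeR (Prdm14 had the smallest adjusted p, 0.0536), with 2 at an unadjusted p under 0.05. That fit called 0.672% of all tested genes lower and 0.781% higher.

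**Figure D2:**
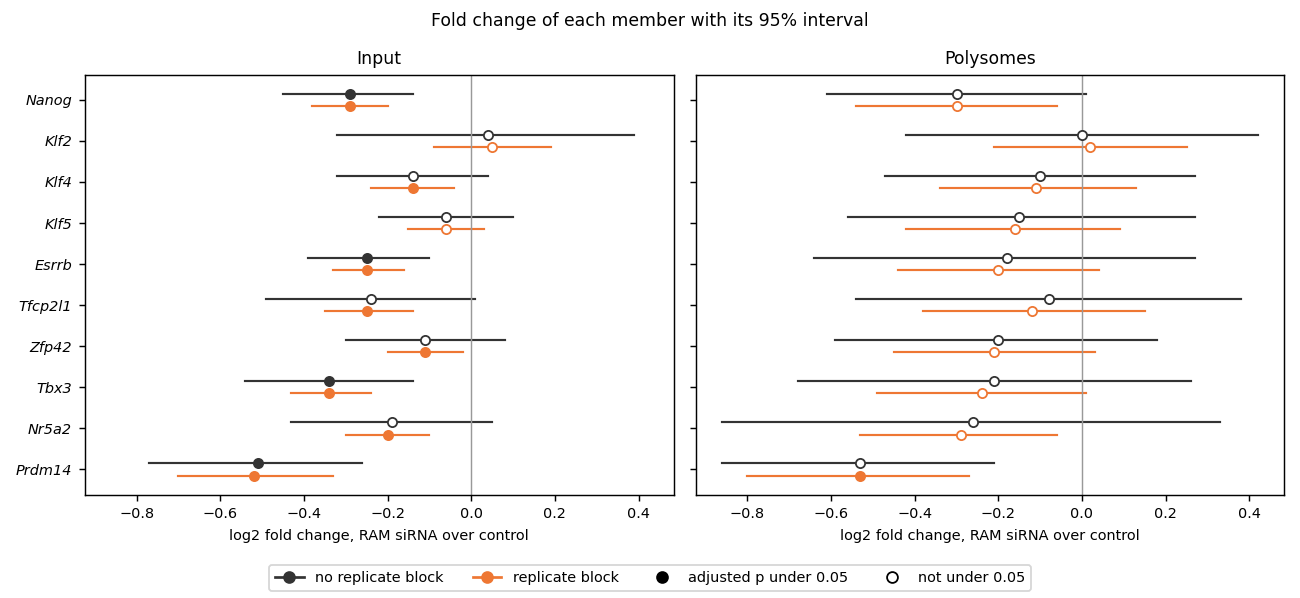
Log2 fold change of each member, RAM siRNA over control, with its 95% confidence interval, in input (left) and polysomes (right), for the fit without (grey) and with (orange) the replicate block; filled points passed an adjusted p of 0.05. In input 4 points are filled without the block and 8 with it, and in polysomes only Prdm14 is filled, with the block.

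The same question was asked of the transcripts on polysomes. Without the block 0 of the 10 members were called in either direction by edgeR, against 0.0234% of all tested genes called lower and 0% called higher. Only Prdm14 had an unadjusted p under 0.05, and DESeq2 called it (log2 fold change -0.55, adjusted p = 0.0263). DESeq2 called 1.12% of all tested genes lower and 1.22% higher. The median log2 fold change was -0.19 over the members and 0.06 over all tested genes.

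Prdm14 was at 13, 13.3, 11.3 and 11.8 CPM in control polysomes and at 8.2, 9.17, 8.01 and 7.65 CPM in RAM siRNA polysomes. The groups did not overlap (log2 fold change -0.53, standard error 0.15, adjusted p = 0.233). With the block it fell (-0.53, standard error 0.12, adjusted p = 0.00955) and was the 1 member to pass, against 4.97% of tested genes called lower and 9.68% called higher. It passed by edgeR with the block when pair 2, 3 or 4 was left out, and its adjusted p was 0.0681 without pair 1.

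Nanog was at 473.3, 406.1, 405.7 and 440.8 CPM in control polysomes and at 367.8, 349.7, 307.4 and 332.1 CPM after RAM siRNA. Its groups also stood apart, with a log2 fold change of -0.30 (95% confidence interval -0.61 to 0.01, adjusted p = 0.576). Of the 10 members, Nanog and Prdm14 were the ones with no overlap between polysome groups. The share of all tested genes without overlap was not counted, so this does not set them apart from other genes.

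In the remaining polysome comparisons replicate 2 of the RAM siRNA group stood apart. That library was the highest of its group for 7 members (Klf2, Klf5, Esrrb, Tfcp2l1, Tbx3, Nr5a2 and Prdm14) and the lowest for Klf4 and Zfp42. Tfcp2l1 was at 73.9, 108.3, 71.4 and 55 CPM in RAM siRNA polysomes, against 84.4, 87.2, 88.8 and 76.1 CPM in control. Tbx3 was at 86.5, 109.1, 73.8 and 56.7 CPM, against 110.8, 105, 94.9 and 79.7 CPM. Klf5 was at 125.6, 179.6, 119.9 and 109.2 CPM, against 164.3, 156, 160.8 and 128.7 CPM. In these 3 genes replicate 2 was above its control partner and the other 3 RAM siRNA libraries were below theirs.

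The same library held Pou5f1, the gene for Oct4, at 376.6 CPM, where the other 3 RAM siRNA polysome libraries held between 682.7 and 1010.7 CPM. It also had the lowest scaling factor of the 16 libraries, 0.886. Over the members, the median pair difference in polysomes was -0.33 in pair 1, -0.04 in pair 2, -0.36 in pair 3 and -0.39 in pair 4. In input the 4 pair medians were -0.21, -0.12, -0.23 and -0.26, so pair 2 was the smallest in both fractions.

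With pair 2 left out of both arms and the block kept, a setting chosen after the data were seen, 7 of the 10 members fell in polysomes: Nr5a2 (-0.39, adjusted p = 5.41e-04), Prdm14 (-0.54, 0.00149), Tbx3 (-0.34, 0.0016), Nanog (-0.33, 0.0022), Klf5 (-0.29, 0.00492), Esrrb (-0.26, 0.0128) and Tfcp2l1 (-0.26, 0.0132). In that fit 14.3% of all tested genes were called lower and 21.3% higher. Zfp42 (-0.19, adjusted p = 0.0639), Klf4 (-0.05, 0.631) and Klf2 (-0.02, 0.877) did not pass. The same 7 genes were called when pairs 3 and 4 alone were fitted, where 9.25% of all tested genes were called lower and 16.1% higher. By edgeR 0 were called when pairs 1 and 2 alone were fitted, with 1 at an unadjusted p under 0.05, where 0.953% of all tested genes were called lower and 2.34% higher. Leaving out replicate 2 of the RAM siRNA group alone, without the block, also called 0 members by edgeR, and the smallest adjusted p was 0.163, for Prdm14.

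**Figure D3:**
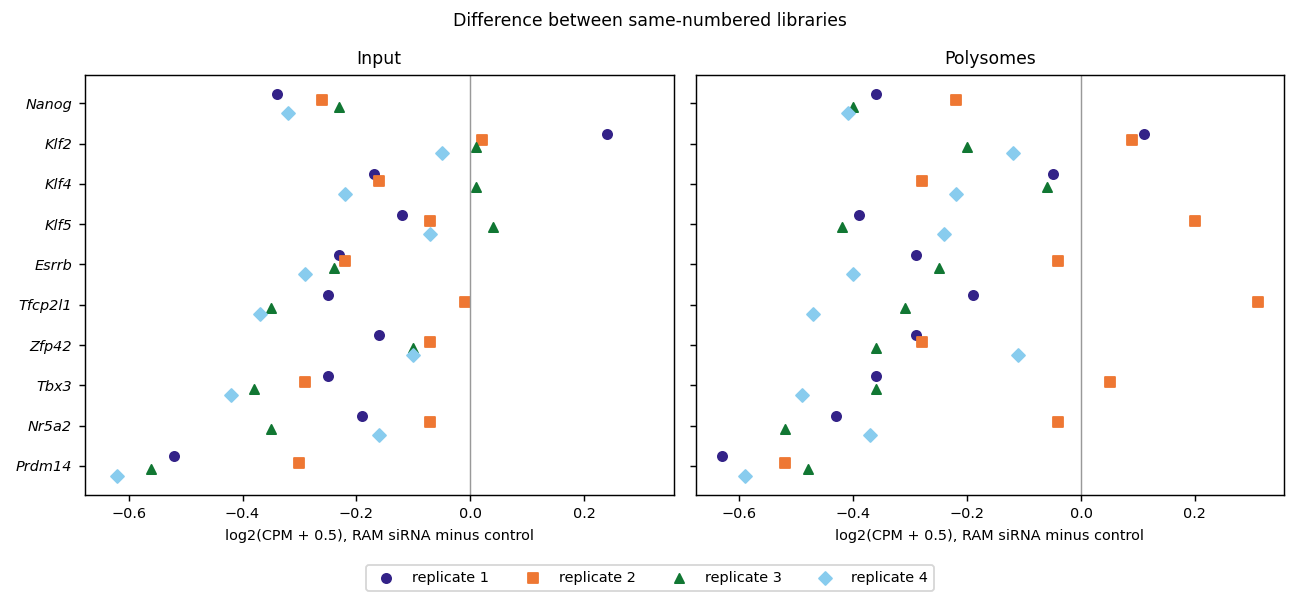
Difference in log2(CPM + 0.5) between the RAM siRNA and the control library of the same replicate number, for each member in input (left) and polysomes (right). In polysomes the pair 2 points (orange squares) of Klf5, Tfcp2l1 and Tbx3 lie above 0, at 0.20, 0.31 and 0.05, while those of the other 3 pairs lie below 0.

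Whether the loading of each transcript on polysomes changed relative to other transcripts was tested over all 16 libraries. The value tested was the polysome fold change less the input fold change. Each library was scaled to its own total, so a change of loading shared by all transcripts cannot be seen here. The study itself reported a significantly lower ratio of polysomes to monosomes after RAM siRNA. By edgeR 0 of the 10 members and 0% of all tested genes were called, and DESeq2 called 0 members and 1 gene. In the edgeR fit 0 members and 100 genes (0.781%) had an unadjusted p under 0.05. That fit does not use the replicate numbers, and with the replicate block within each fraction the share was 4.97%. A threshold of 0.05 would give more than 0.781% if nothing had changed, so the lack of calls without the block carries little weight. The members' estimates ran from -0.14 for Zfp42 to 0.11 for Tfcp2l1. The intervals were wide: -0.39 to 0.28 for Nanog, -0.45 to 0.31 for Prdm14, -0.42 to 0.64 for Tfcp2l1 and -0.79 to 0.56 for Nr5a2. With the replicate block within each fraction edgeR called 0 members too, with 0 at an unadjusted p under 0.05, and 2 of all tested genes, and the intervals were narrower: -0.29 to 0.17 for Nanog, -0.35 to 0.23 for Prdm14, -0.24 to 0.40 for Tfcp2l1 and -0.40 to 0.11 for Nr5a2. Changes of loading within these narrower intervals remain possible, and the smallest detectable change was not computed.

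Polysome loading of the members was read from the control siRNA cells, as control polysomes against control input. This comparison is relative to the total of each library, so it ranks transcripts and gives no absolute share on ribosomes. Polysome RNA was extracted with phenol and chloroform and precipitated with lithium chloride, while input RNA was extracted with Trizol. Differences between the fractions and between the extractions therefore cannot be told apart here. Of the 10, 3 members were higher in polysomes, 3 were lower and 4 did not pass, against 33.1% of all tested genes called higher and 34.3% called lower.

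Klf2 was the most polysome-rich member, at 34.1, 43.3, 52.3 and 46.5 CPM in control polysomes against 14.1, 22.2, 24.7 and 22.5 CPM in control input (log2 ratio 1.05, standard error 0.19, adjusted p = 4.59e-04). Zfp42 followed at 751.7, 607.1, 661.8 and 757 CPM in polysomes (0.85, standard error 0.13, adjusted p = 1.08e-04), and then Nanog (0.69, standard error 0.11, adjusted p = 2.31e-04). In each of the 3 the lowest polysome library was above the highest input library, which was not counted over all tested genes.

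Tfcp2l1 stood at the other end, at 84.4, 87.2, 88.8 and 76.1 CPM in polysomes against 307.9, 311.3, 352 and 274.3 CPM in input, 3.79-fold lower (log2 ratio -1.92, standard error 0.12, adjusted p = 3.19e-07). Of all tested genes, 4.65% had a lower ratio. Esrrb was 1.85-fold lower in polysomes (-0.89, standard error 0.13, adjusted p = 8.76e-05). Tbx3 was 1.33-fold lower (-0.42, standard error 0.12, adjusted p = 0.0115), but its call was lost with no filter on low counts (adjusted p = 0.134), with edgeR's own filter (0.0516) and in the fit of all 16 libraries (0.0654). Klf4 (0.07), Klf5 (0.19), Nr5a2 (-0.20) and Prdm14 (-0.11) did not pass.

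Within the Kruppel-like family the 3 genes thus had different control values, with log2 ratios of 1.05 for Klf2, 0.19 for Klf5 (95% confidence interval -0.05 to 0.44) and 0.07 for Klf4 (-0.18 to 0.33), and the interval of Klf2, 0.63 to 1.46, did not reach those of the other two. Differences between genes were not themselves tested.

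The calls of polysomes against input ran alongside the exon length of the genes, though the order of the ratios did not. The 3 members called higher have the shortest exon models, 1.847 kb for Klf2, 1.881 kb for Zfp42 and 2.242 kb for Nanog, and the 3 called lower have the longest, 9.438 kb for Tfcp2l1, 6.624 kb for Tbx3 and 6.047 kb for Esrrb. Tbx3 is longer than Esrrb, yet its log2 ratio was -0.42 against -0.89. In the transcript of Tfcp2l1 with the longest coding sequence, 7734 of 9269 bases are 3′ untranslated, while in Klf2 737 of 1847 are. Among transcripts chosen in this way, that of Nr5a2 (4733 bases, not called) is longer than that of Esrrb (4196 bases, called lower). Shorter exon models had the higher ratios over all tested genes too. The median log2 ratio was 0.37 over 2872 genes with under 2.5 kb of exon, 0.23 over 4546 genes with 2.5 to 5 kb, and -0.35 over 5359 genes with more than 5 kb. The parts of length and of RNA extraction in the members' values were not tested.

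**Figure D4:**
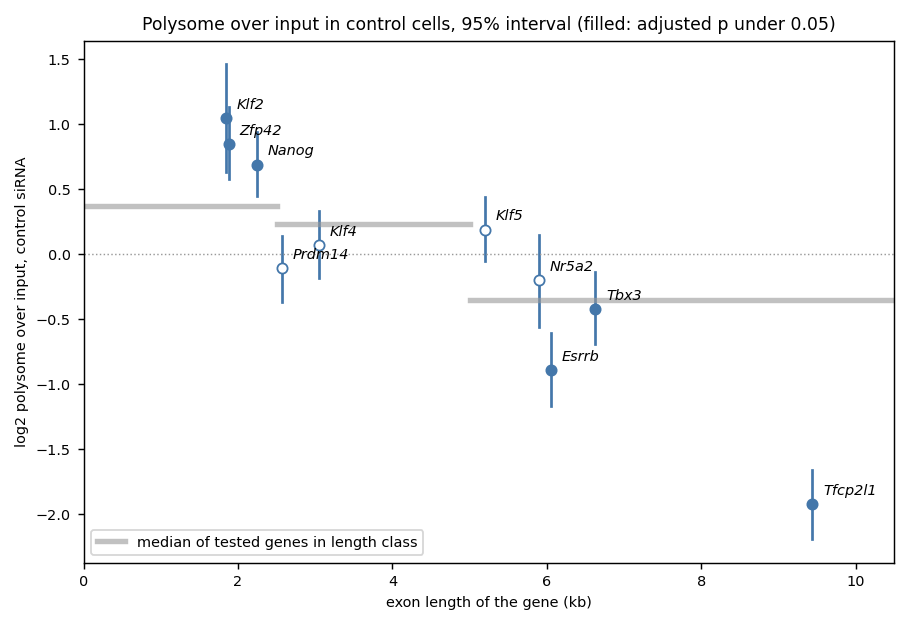
Log2 ratio of control polysomes over control input for each member, with its 95% confidence interval, against the exon length of the gene in kb; filled points passed an adjusted p of 0.05 and grey bars are medians of all tested genes in 3 length classes. Klf2, Zfp42 and Nanog lie above 0 on the left, Tfcp2l1 lies at -1.92 on the right, and the grey bars descend from 0.37 to -0.35.

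Genes that work with the members were read from 3 further lists. In input without the block, 5.94% of all tested genes were called lower and 6.95% higher. Of 16 companions in the network, 2 fell in input and none rose: Dppa5a, an RNA-binding protein gene of pluripotent cells (-0.36, standard error 0.07, adjusted p = 0.00701), and Fgf4, the growth factor that ESCs secrete (-0.42, standard error 0.09, adjusted p = 0.00809). Fgf4 was at 379.8, 406.8, 396.2 and 340.1 CPM in control input and at 299.5, 293.5, 295.6 and 251.7 CPM after RAM siRNA, with no overlap. With the block 5 of the 16 fell and 2 rose, where 19.0% of all tested genes were called lower and 20.3% higher, and their median was -0.08 in both fits. Pou5f1 (-0.19, adjusted p = 0.231) and Sox2 (-0.09, adjusted p = 0.426) did not pass without the block. The study itself reported that transcripts of Oct4, Klf4 and Nanog fell significantly after RAM siRNA. The missing call of Pou5f1 is that of the fit without the block, and its values in other fits are not given here. Klf4 was called with the block and not without it.

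Of 12 genes that act on the members from above, 1 fell and 1 rose in input. Without the block 5.94% of all tested genes were called lower and 6.95% higher. Lifr, the LIF receptor gene, fell from 363.5 ± 37.1 to 280.7 ± 35.5 CPM (-0.38, standard error 0.11, adjusted p = 0.0362). Mapk3, which encodes ERK1, rose from 15.1 ± 2.69 to 25 ± 4.13 CPM (0.73, standard error 0.14, adjusted p = 0.00579, SD, n = 4 each). With the block 5 of the 12 fell and 2 rose, against the same 19.0% and 20.3% of all tested genes. Of 14 genes of the formative and primed states that follow the naive state, 11 passed the filter, none fell and 1 rose, the transcription factor gene Sox4 (0.49, standard error 0.12, adjusted p = 0.0202). With the block 4 fell and 3 rose, against 19.0% and 20.3% of all tested genes, and the median over the 11 was -0.21 in both fits.

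Markers of other cell types were summed in the same libraries. Of all tested genes, 5.94% were called lower and 6.95% higher in input without the block. With the block these shares were 19.0% and 20.3%. Of 8 primitive endoderm markers, 5 passed the filter, and their summed level was 21.1 to 23.1 CPM in control input and 22.1 to 30.8 CPM after RAM siRNA, with Gata6 (0.61, adjusted p = 0.0196) and Dab2 (0.55, adjusted p = 0.0384) higher. Sox7 did not pass (-0.77, adjusted p = 0.0573). With the block 3 of the 5 were higher and Sox7 was lower (-0.79, adjusted p = 0.00113). Neural progenitor markers (5 of 8 passed, Pax3 at 0 in every library) summed to 75 to 85.6 and 81.3 to 94.3 CPM, and fibroblast markers (2 of 8) to 11.5 to 12.4 and 13.6 to 14.2 CPM. Trophoblast markers (2 of 8) summed to 38.7 to 46.3 and 27.6 to 39 CPM, with Tfap2c lower (-0.38, adjusted p = 0.0493). With the block both trophoblast markers were lower, and of the neural markers Pax6 was lower (-0.51, adjusted p = 2.87e-04) and Nes higher (0.43, adjusted p = 3.70e-06). Their part in the members' falls was not tested, and fewer cells in the naive state and less of each transcript per cell cannot be told apart in these bulk libraries.

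An siRNA can act on other transcripts through short matches in their 3′ untranslated region (UTR), and the sequence of the RAM siRNA is not given in the sources used here. The 3′ UTR of each member was searched for 2 strings of 7 bases and for the first 6 bases of each, chosen because earlier results of these libraries tied them to lower and to higher genes. That choice set the direction of the medians over all genes given below, so they are a description and no test. ACTATCA was in the 3′ UTR of none of the 10 members and of 5.2% of 11905 tested genes with an annotated 3′ UTR, and the genes with it had a median input log2 fold change of -0.13, against 0.00 for those without. Its first 6 bases, ACTATC, were in Klf5 and Esrrb and in 13.3% of tested genes (medians -0.07 and 0.01). TGCTCAA was in Esrrb, Tfcp2l1 and Tbx3 and in 7.76% of tested genes, whose median was 0.06 against -0.01 for the rest. Its first 6 bases, TGCTCA, were in Klf5, Esrrb, Tfcp2l1 and Tbx3 and in 33.9% of tested genes (medians 0.02 and -0.01). The part of such matches in the members' values was not tested.

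Prdm14, which had the smallest p in input among the members without the block, was compared with every other gene of at least 10 CPM on average over the 16 libraries. The 3 genes nearest to its profile were Ptbp3, Trp53inp1 and Mib2, with root mean square differences of 0.106, 0.108 and 0.109 in centred log2 level, where the median over 9124 genes was 0.37. Since they were picked for their likeness to Prdm14 over these libraries, their values are a description: the log2 fold changes were -0.50, -0.43 and -0.33 in input and -0.35, -0.44 and -0.57 in polysomes.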

How the data were processed

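RNA-seq libraries were made from input and polysome RNA of control and RAM siRNA cells by the TruSeq Stranded Total RNA protocol with Ribo-Zero. The authors aligned reads with STAR 2.5.1b to mm10 and counted them per gene with HTSeq; the annotation release and the strand and overlap settings are not given in the sources used here. The deposited values are raw counts for 46983 Ensembl genes, of which 46488 matched GENCODE M21 (GRCm38), used here for symbols, exon lengths and transcript parts.

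Genes that reached 1 CPM in 10 or more libraries were tested with edgeR 4.0.16 (R 4.3.3; TMM, glmQLFit and glmQLFTest, Benjamini-Hochberg over 12805 genes, threshold 0.05). Input and polysome comparisons used 8 libraries each, loading used 16 and control polysomes against control input used 8. DESeq2 1.42.0 and other scalings, filters and designs were alternatives. For permutation tests 0.5 was added to CPM before log2. Intervals are 95% from the fit. The functions were tested on simulated data.

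The study describes 4 independent transfections. Deviations of same-numbered libraries from their group means correlated between siRNA arms in every pair (lowest r 0.4 in input and 0.625 in polysomes, over 9140 genes; mean r of other numbers -0.197 and -0.273), so the numbers were taken to pair the samples. No 2 libraries of a group agreed within sampling noise (lowest chi-square per gene 4.22).

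Named genes were all 10 members, Ramac, from each pathway list up to 4 genes past the threshold in input by smallest p, and the 3 genes nearest in profile to the member of smallest p in input without the block. Members, lists and tests were chosen with earlier results of these data known. Between 16647523 and 20147833 reads were counted per library, and member values rest on 129 or more reads.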

Additional observations from a re-analysis of the deposited data

Results flagged for a closer look

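Zfp42 in control input replicate 4 stood apart from the other libraries of its group, at 425.5 CPM where they held between 354.6 and 361.4 CPM. Its gap to the nearest library was 0.904 of the group's range, above Dixon's 95% critical value for 4 libraries. It was the 1 value flagged among 40 groups of 4 libraries, and chance flags about 1 in 20 groups. Without that library the input log2 fold change of Zfp42 was -0.05. Replicate 4 was the highest library of both input groups, and without pair 4, with the block kept, the value was -0.11 (edgeR, adjusted p = 0.0275).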

How the results depend on the processing

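In input the 4 called members kept their calls under DESeq2, the likelihood ratio test, both other scalings and both other filters. These settings called 3.46% to 7.6% of all tested genes lower. The number lower was 8 with the replicate block (19.0% of all tested genes lower) and 0 in 1 fit of all 16 libraries (0.672%). It was 7 with pairs 1 and 2 only (17.5%), without pair 3 (15.9%) and without pair 4 (18.7%), block kept. When single libraries were left out it was 1 to 4, and the share of all tested genes was not read. The median was -0.15 with pairs 1 and 2 only and -0.27 to -0.18 when single libraries were left out. In polysomes the number lower was 1 with DESeq2 (1.12% of all tested genes lower), with the block (4.97%) and in the fit of all 16 libraries (1.94%). It was also 1 without pair 3 (3.19%) or pair 4 (2.4%). It was 7 with pairs 3 and 4 only (9.25%), 7 without pair 2 (14.3%), and 0 without any single library. The block with a pair left out was chosen after seeing the data. The cause of these moves was not tested.

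Several differences near 0 changed sign. Klf2 in input was -0.02 with pairs 3 and 4 only, -0.01 without pair 1, and -0.11 to 0.14 without single libraries. Klf2 in polysomes was -0.01 with DESeq2 and with RLE scaling, -0.05 with library size only and with no filter, -0.02 with edgeR's own filter, -0.04 in the fit of all 16 libraries, -0.11 with pairs 3 and 4 only, -0.04 without pair 1, -0.02 without pair 2, and -0.13 to 0.12 without single libraries. Tfcp2l1 in polysomes was 0.09 with pairs 1 and 2 only and -0.27 to 0.04 without single libraries. For the change of loading, Klf4 was 0.03 with DESeq2 and RLE scaling, 0.01 with library size only, 0.06 with no filter and 0.04 with edgeR's own filter, Nanog was 0.02 and Prdm14 0.01 with no filter, and Esrrb was 0.00 with a replicate block within each fraction or by culture. Without single libraries the loading median was -0.11 to 0.03, and the ranges were -0.10 to 0.02 for Nanog, -0.19 to 0.12 for Klf2, -0.07 to 0.06 for Klf4, -0.12 to 0.10 for Esrrb, -0.10 to 0.24 for Tfcp2l1, -0.10 to 0.21 for Tbx3, -0.40 to 0.02 for Nr5a2 and -0.12 to 0.03 for Prdm14. The block changed no other call.

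For control polysomes against control input the members' median of -0.02 became 0.01 with DESeq2 and RLE scaling, -0.11 with library size only, 0.12 with no filter, 0.08 with edgeR's own filter and 0.02 in the fit of all 16 libraries, and was -0.04 to 0.02 without single libraries. With no filter the median of all genes moved by 0.14. Klf4 was -0.01 with library size only, and Prdm14 was 0.03 with no filter. Klf5 passed with edgeR's own filter (adjusted p = 0.0451) and without control polysome replicate 4 (0.0322). With library size only, the level of Esrrb was 451.8 CPM in control input and 374.4 CPM in RAM siRNA input.

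Klf2 and Prdm14 had the fewest reads, and 4 libraries a group limit each interval.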
